A study of Homo sapiens with 2 samples.

Results

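Prostaglandin synthesis and receptor genes were examined as a group of 9 genes: PLA2G4A, PTGS1, PTGS2, PTGES, PTGES2, PTGES3, PTGER2, PTGER4 and HPGD. Their transcripts were read on 2 arrays in MDA-MB-231, an established line of mesenchymal human breast cancer cells. One array held total RNA of a clone with stable knockdown of UGT8, the ceramide galactosyltransferase that makes galactosylceramide. The other held total RNA of the parental cells, which served as the control. Per the labels, all cells were grown in DMEM with glucose and were harvested after the same interval from passage. Members were found as the probe sets whose only gene symbol in the platform annotation was one of the 9, which gave 29 of 49495 probe sets and 9 of 18244 genes. The set was selected on results of these same 2 arrays, in which PTGS2 was already known to be lower, so what follows describes the 2 arrays and supports no claim about such genes in general.

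Prostaglandins are lipid signals made from arachidonic acid. A phospholipase A2 cuts arachidonic acid from membrane phospholipids, a cyclooxygenase turns it into prostaglandin H2, and a terminal synthase makes prostaglandin E2 from that. Prostaglandin E2 leaves the cell, binds G protein-coupled receptors and is broken down after uptake. In breast tumours PTGS2 is known as a gene linked to spread of the tumour cells.

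Each group held 1 array, so nothing below could be checked against replicates and no test was run. Levels are log2 RMA values, and a difference is the UGT8 knockdown value minus the control value. For each gene the value is that of whichever probe set was highest on average over the arrays, and a level was called past the floor at a mean of at least 6.64, the median over all probe sets that are not controls. The cells were a clone on one side and the parental line on the other, and the sources used here give neither the knockdown reagent nor whether the control cells carried a vector. Effects of cloning, of any vector or selection and of the knockdown cannot be told apart. UGT8 itself read 4.79, 5.78 and 6.61 in its 3 probe sets on the knockdown array, against 7.06, 7.47 and 8.95 on the control array, and was lower in all of them. Of the identity markers, VIM, CD44, KRT18, AXL, SPARC and FN1 were past the floor, ESR1 and PGR were below it, and CDH1, EPCAM, GATA3 and FOXA1, listed as low or absent in this line, were past it. Of 16 identity markers past the floor 1 was lower by 1.5-fold or more and 1 was higher by that much, with a median of -0.03. Over all genes past the floor 6.74% were lower and 4.96% higher by that much, with a median of 0.03. ZEB1, a transcription factor of the mesenchymal state, read 9.60 on the knockdown array and 10.4 on the control array (-0.77), and 5 of its 7 probe sets were at least 1.5-fold lower. EPCAM, an epithelial surface gene, read 8.97 on the knockdown array and 8.34 on the control array (0.62), with all 3 probe sets at least 1.5-fold higher, though none of these markers was higher by that much when centred on the poly-A or hybridisation controls. The difference between the 3' and 5' probe sets of ACTB, a reading of RNA quality, was 0.90 on the knockdown array and 0.49 on the control array, while that of GAPDH was 0.19 on the knockdown array and 0.18 on the control array. The median shift of the spiked hybridisation control RNAs was 0.51 towards the knockdown array. The part of these readings in the differences below was not tested.

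The upstream sequences of the 3 members that were lower are given here, and those of the other 6 members were searched for the same motifs. Each is the 250 bases before an annotated start, 5′ to 3′ on the gene's strand, from RefSeq on GRCh38.p14. Capitals mark matches on either strand to 5 motifs: GGGANNNNCC (a kappaB-type site), TTNNGCAA (a C/EBP-type site), TGACG (the core of a cAMP response element), TATAAA (the TATA box) and GGGCGG (the GC box).
PTGS2, chr1:186680424-186680673, minus strand: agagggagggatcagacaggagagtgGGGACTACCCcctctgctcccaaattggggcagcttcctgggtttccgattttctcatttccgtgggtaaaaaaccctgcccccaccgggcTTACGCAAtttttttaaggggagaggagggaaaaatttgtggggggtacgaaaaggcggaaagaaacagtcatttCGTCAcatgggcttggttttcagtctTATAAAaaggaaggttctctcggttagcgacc
PLA2G4A, chr1:186828699-186828948, plus strand: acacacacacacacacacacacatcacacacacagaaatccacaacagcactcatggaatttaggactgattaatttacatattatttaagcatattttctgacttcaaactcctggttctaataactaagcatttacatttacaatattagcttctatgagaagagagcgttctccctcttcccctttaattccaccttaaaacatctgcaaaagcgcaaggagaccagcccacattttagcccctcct
HPGD, chr4:174522489-174522738, minus strand, the first of 2 starts listed: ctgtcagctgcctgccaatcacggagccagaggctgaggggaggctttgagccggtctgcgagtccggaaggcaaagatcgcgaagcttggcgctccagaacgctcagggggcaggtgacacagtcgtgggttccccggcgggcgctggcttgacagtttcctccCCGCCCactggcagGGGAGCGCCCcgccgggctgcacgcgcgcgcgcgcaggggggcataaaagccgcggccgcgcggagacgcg
In the PTGS2 window the kappaB-type letters lay 224 to 215 bases before the start, the C/EBP-type letters at 133 to 126, the cAMP core at 58 to 54 and the TATA box at 32 to 27, none overlapping another. Of all 35116 starts in the table, 22.6% held the kappaB-type letters in this window, 9.05% the C/EBP-type letters, 21.2% the cAMP core, 10.7% the TATA box and 42.6% the GC box. PTGS2 was the single member with the C/EBP-type letters, and it had no GC box, which 7 of the 9 members had at 1 or more starts. The kappaB-type letters were found in 5 members: PTGS2, HPGD, and also PTGS1, PTGES3 and PTGER4, which were not lower. The cAMP core was found in 4: PTGS2, HPGD, PTGES3 and PTGER2, in HPGD only at its second start, which is not shown. The TATA box was found in 2, PTGS2 and PTGS1. None of the 5 motifs was found in the PLA2G4A window. A match is a description of the letters and not evidence of a bound site. In the RefSeq order of genes on chromosome 1, PTGS2 and PLA2G4A are neighbours on opposite strands, with 1 annotated gene between them, the long noncoding RNA gene PACERR, for which no probe set was named.

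Among the 9 genes, PTGS2, PLA2G4A and HPGD were lower on the UGT8 knockdown array by at least 1.5-fold, and none was higher by that much. All 12 probe sets of these 3 genes were below 0. All 17 probe sets of the other 6 genes were above 0 on the deposited scale, by 0.02 to 0.40. Of all non-control probe sets 50.6% were above 0. The 3 and the 6 genes were set apart by these same differences, so their signs cannot be weighed against that share. The 6 gene readings turned negative when the arrays were centred on the hybridisation controls. Probe sets of 1 gene can share probes and are not independent readings. Of the 6 members past the floor, 2 were at least 1.5-fold lower and 1 at least 2-fold lower. Over all 10439 genes past the floor, 6.74% were at least 1.5-fold lower and 4.96% at least 1.5-fold higher, and 1.54% and 0.738% reached 2-fold. After centring on the hybridisation controls, the count past 1.5-fold was 3870 below and 50 above, against 704 and 518 on the deposited scale. The 6 members past the floor had a median difference of 0.19, and all genes past the floor one of 0.03. For scale, probe sets reading the same gene differed from each other with a median SD of 0.083 over 6067 genes, which is no replicate error. PTGS1, PTGER2 and HPGD lay below the floor.

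**Figure D1:**
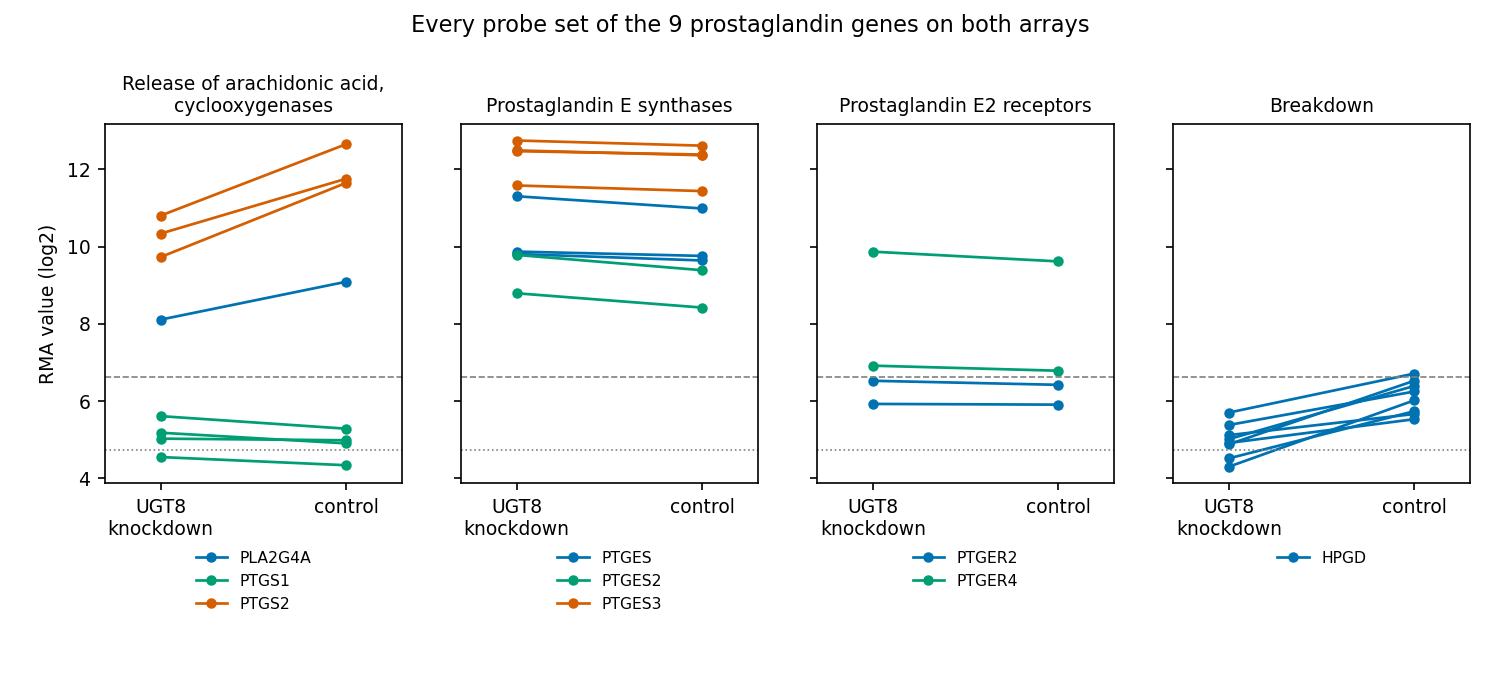
RMA values (log2) of all 29 probe sets of the 9 genes on the UGT8 knockdown array (left of each panel) and the control array (right), 1 line per probe set, coloured by gene. The dashed line is the floor (6.64) and the dotted line the mean of the 23 background probe sets (4.73). Lines of PTGS2, PLA2G4A and HPGD climb towards the control array, and those of the other 6 genes are close to level.

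PLA2G4A encodes the cytosolic phospholipase A2 that releases arachidonic acid. Its 1 probe set read 8.11 on the knockdown array and 9.09 on the control array. The difference was -0.98, which left 50.7% of the control signal, and 1.62% of the genes past the floor lay lower. With a single probe set, no second reading of this gene was at hand.

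PTGS2, the inducible cyclooxygenase, had the largest difference of the 9. Its 3 probe sets read 9.73, 10.3 and 10.8 on the knockdown array, against 11.7, 11.8 and 12.7 on the control array. Each of the 3 was lower on the knockdown array. The differences were -1.92, -1.42 and -1.85 in the same order, with a mean of -1.73 ± 0.27 (SD over the 3 probe sets, which is no replicate error). By its highest probe set, PTGS2 was 3.60-fold lower, and 27.8% of the control signal remained. Only 11 of the 10439 genes past the floor lay lower, which put PTGS2 at position 12. Next to it stood SSPN (-1.89), HAS2 (-1.85), which encodes a synthase of hyaluronan, and CEMIP (-1.85), whose product takes part in hyaluronan breakdown, on the lower side. CHI3L2 (-1.84), TNFSF10, which encodes the death ligand TRAIL (-1.79), and the collectin gene COLEC12 (-1.78) stood on the other side. This likeness is in 1 difference between 2 arrays.

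PTGS1, the cyclooxygenase that most tissues express constantly, was within 1.5-fold. Its 4 probe sets read 4.55 to 5.61 on the knockdown array and 4.34 to 5.29 on the control array, with differences of 0.04 to 0.32. One of them was at or below the mean of the background probe sets (4.73) on both arrays, and all 4 lay below the floor, so a change in PTGS1 could not be read with any precision.

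**Figure D2:**
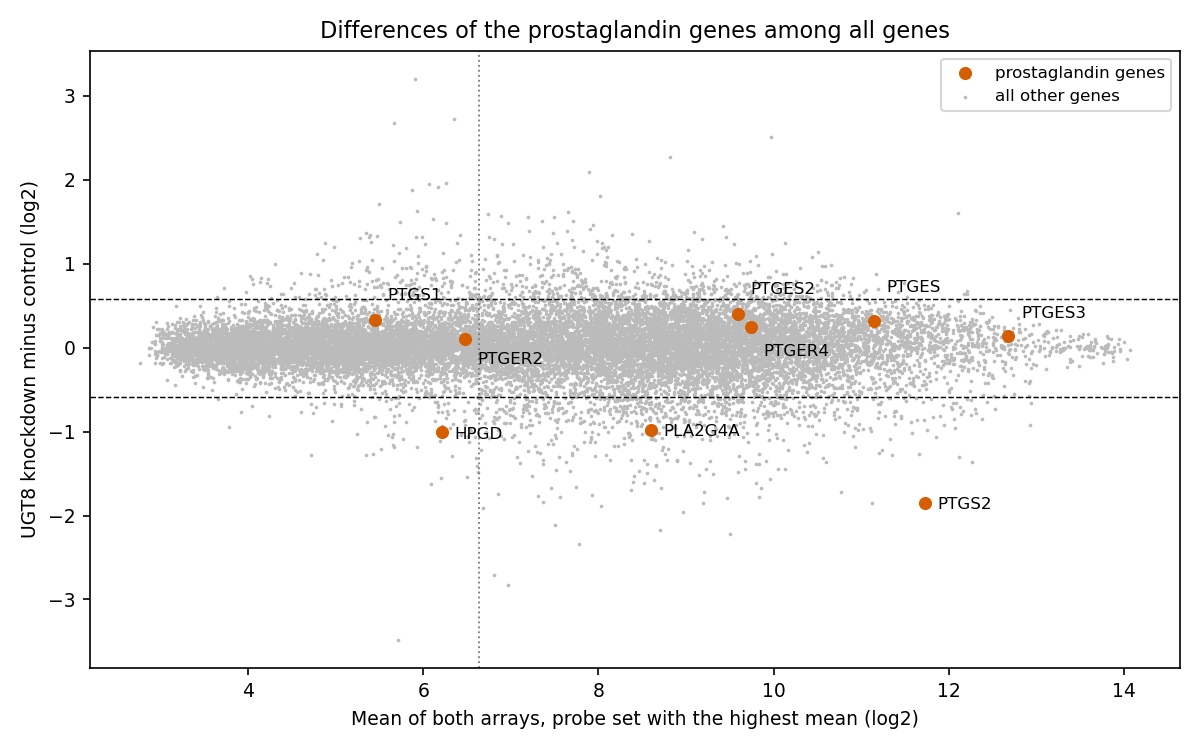
Difference (log2, UGT8 knockdown minus control) against the mean of both arrays (log2) for the probe set with the highest mean of each of 18244 genes, the prostaglandin genes in orange and all other genes in grey. The dashed lines mark 1.5-fold and the dotted line the floor of 6.64. PTGS2 (-1.85), PLA2G4A (-0.98) and HPGD (-1.01) lie below the lower dashed line and the other 6 lie between the dashed lines.

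The 3 prostaglandin E synthases, which convert prostaglandin H2 to prostaglandin E2, were each within 1.5-fold. PTGES, the inducible microsomal synthase that is often expressed together with PTGS2, read 9.81, 9.87 and 11.3 on the knockdown array and 9.64, 9.76 and 11.0 on the control array. Its differences were 0.17, 0.11 and 0.32 on the deposited scale, small beside that of PTGS2 and of the other sign. PTGES2, a second membrane-bound synthase, read 8.79 and 9.79 on the knockdown array and 8.42 and 9.39 on the control array. Its differences of 0.37 and 0.40 were the largest among the members above 0, and a higher one was found in 12.6% of the genes past the floor. PTGES3, which is also the HSP90 co-chaperone p23, read 11.6 to 12.7 on the knockdown array and 11.4 to 12.6 on the control array in its 4 probe sets. Their differences were 0.09 to 0.15, and all 4 carry a suffix (_x_at or _s_at) that marks probe sets which may also match other transcripts. Centred on the hybridisation controls, the 3 synthases read -0.20, -0.12 and -0.38.

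The receptors PTGER2 and PTGER4 bind prostaglandin E2 and raise cyclic AMP. PTGER4 read 6.92 and 9.87 in its 2 probe sets on the knockdown array, against 6.79 and 9.62 on the control array. Both of its differences (0.13 and 0.25) were small, and a higher one than the second was found in 23.9% of the genes past the floor. PTGER2 read 5.93 and 6.53 on the knockdown array and 5.91 and 6.42 on the control array, with differences of 0.02 and 0.10. Both PTGER2 probe sets were below the floor. Centred on the hybridisation controls, PTGER4 differed by -0.26 and PTGER2 by -0.41, still within 1.5-fold.

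HPGD, the dehydrogenase that starts the breakdown of prostaglandin E2, was lower in each of its 8 probe sets. They read 4.30 to 5.71 on the knockdown array and 5.53 to 6.71 on the control array. Differences ran from -1.72 to -0.55, and 7 of the 8 were at least 1.5-fold. Their mean was -1.13 ± 0.44 (SD over the 8 probe sets). On the knockdown array 2 of the 8 did not exceed the background mean of 4.73, so those differences are limits on their size. All 8 lay below the floor, so the size of the HPGD difference could not be read with any precision. By the probe set with the highest mean, 49.7% of the control signal was left. Of all 7805 genes below the floor, 1.23% were at least 1.5-fold lower. Of the HPGD probe sets 5 are named _x_at and 1 _s_at, suffixes of probe sets that may also match other transcripts.

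By their highest probe sets, other genes of the prostanoid pathway held 1 large difference, that of a carrier. Of 20 genes in this list, 19 had a probe set and 10 lay past the floor, of which 2 were lower by 1.5-fold or more and none was higher by that much, with a median of -0.36, against 6.74%, 4.96% and 0.03 over all genes past the floor. With no floor the median of the list was -0.12. SLCO2A1, the transporter that takes prostaglandins into cells for breakdown, read 7.88 on the knockdown array and 9.55 on the control array, a difference of -1.67 or 3.18-fold. Its 3 probe sets ran from -1.67 to -0.38, with 2 at least 1.5-fold lower and a mean of -1.11. ABCC4, an exporter of prostaglandins, read 8.63 on the knockdown array and 9.26 on the control array (-0.63). That was the only 1 of its 4 probe sets past 1.5-fold, and their mean was -0.25. The 5 measured reductases were all past the floor and differed by -0.51 to 0.27. Of the 7 other prostanoid receptors 1 was past the floor, and their differences ran from -0.44 to 0.10. These values rest on 1 probe set a gene, and the others differed: PTGFR, below the floor, averaged -0.78 with 3 of 4 probe sets at least 1.5-fold lower. TBXA2R, the receptor past the floor, read -0.06 by its highest probe set but averaged 0.45, with 2 of 4 at least 1.5-fold higher, and 1 of the 8 PTGER3 probe sets reached 0.84. PTGFR, TBXA2R and PTGER3 are named here after their values were seen. Of the 4 other terminal synthases 1 was past the floor, with differences of -0.35 to 0.09. That 1, TBXAS1, is also named after its values were seen. Its 5 probe sets ran from -1.17 to 0.23, with 2 at least 1.5-fold lower and a mean of -0.40.

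Upstream of the cyclooxygenases, 3 of the 21 genes past the floor among other phospholipases A2 and arachidonate handling were at least 1.5-fold lower and none was higher by that much, with a list median of -0.05, against 6.74% lower, 4.96% higher and 0.03 over all genes past the floor. The delta-5 desaturase gene FADS1, whose product makes arachidonic acid, read 10.6 on the knockdown array and 11.6 on the control array (-0.99), and its 3 probe sets ran from -1.02 to -0.97. FADS2, the delta-6 desaturase gene of the same route, read 9.53 on the knockdown array and 10.3 on the control array (-0.80), and all 4 probe sets were at least 1.5-fold lower. ACSL4, which attaches arachidonic acid to coenzyme A, read 10.5 on the knockdown array and 11.3 on the control array (-0.81). By their highest probe sets, none of the 17 measured other PLA2G genes differed by 1.5-fold, with 4 of them past the floor. PLA2G12A, named after its value was seen, read 0.33 that way but averaged 0.66 over its 5 probe sets, with 2 at least 1.5-fold higher. PLAAT3, of the same list and also named after its value was seen, read -0.53 by its highest probe set. It averaged -0.65 over its 2 probe sets, with 1 at least 1.5-fold lower. In the lipoxygenase and leukotriene list (median -0.07), 1 of 7 genes past the floor was lower by 1.5-fold or more, and none was higher by that much. It was ALOX5, the first enzyme of leukotriene synthesis, which read 6.36 on the knockdown array and 7.23 on the control array (-0.87), and -0.57 as the mean of its 2 probe sets.

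**Figure D3:**
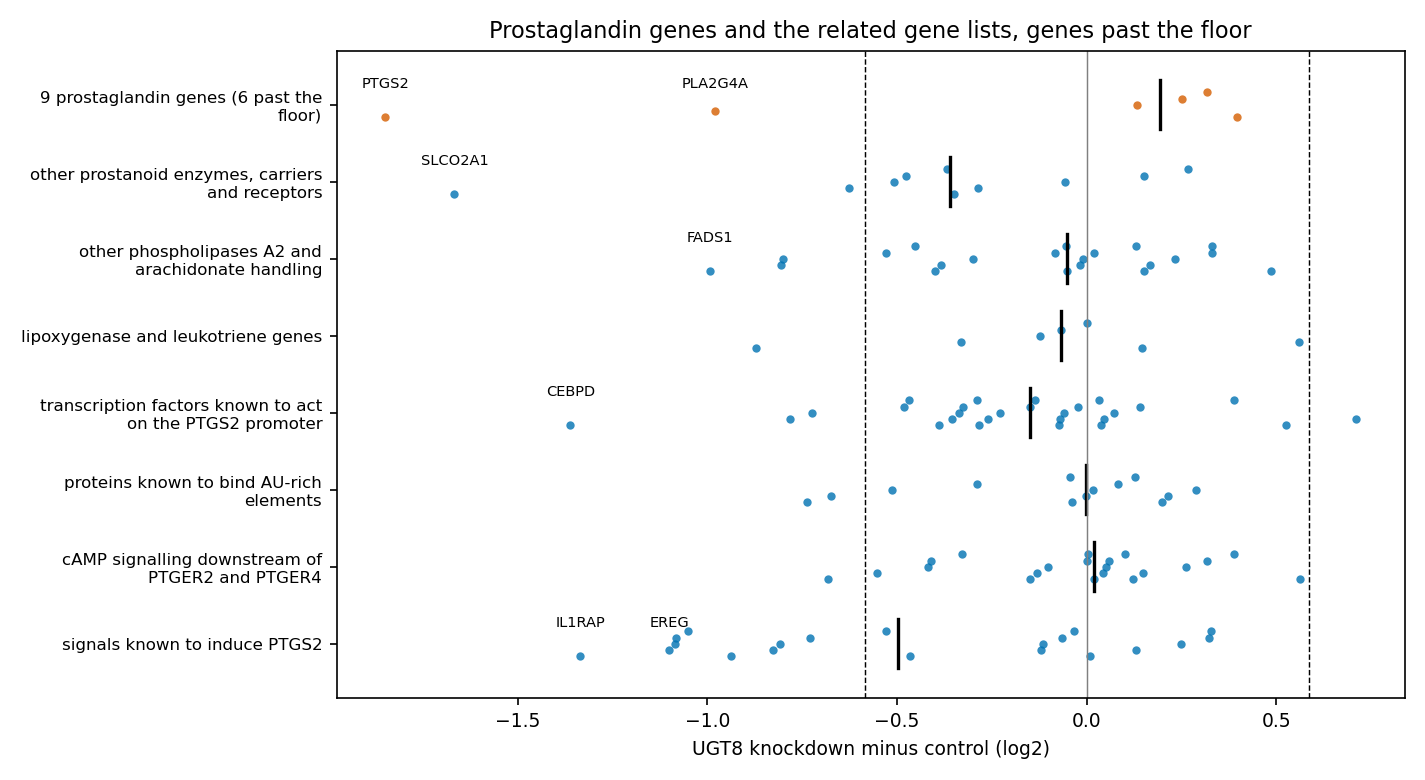
Difference (log2, UGT8 knockdown minus control) of each gene past the floor, 1 point per gene, for the prostaglandin genes (orange, top) and 7 related lists (blue). Black bars are list medians and dashed lines mark 1.5-fold; the vertical scatter within a list has no meaning. The list of signals known to induce PTGS2 has the lowest median of the lists shown (-0.50), with IL1RAP, EREG, TGFB2, TGFA and EPAS1 below -1, as are SLCO2A1 and CEBPD in other lists.

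PTGS2 is induced by cytokines and growth factors, and the list of such signals, their receptors, mediators and regulators held many lower genes. The part of these genes in the PTGS2 difference was not tested. Of 20 genes of this list past the floor, 9 were at least 1.5-fold lower and none was higher by that much, with a median of -0.50, against 6.74% and 0.03 over all genes past the floor. With no floor the median was -0.12, and 9 genes were at least 1.5-fold lower. The interleukin-1 receptor accessory gene IL1RAP read 8.23 on the knockdown array and 9.57 on the control array (-1.33), although its 4 probe sets ran from -1.33 to 0.14. IL1R1, the receptor it pairs with, read 9.01 on the knockdown array and 9.94 on the control array (-0.94), and its 2 probe sets averaged -0.52. The EGF receptor ligand genes EREG (-1.10) and TGFA (-1.08) were both more than 2-fold lower, as were TGFB2 (-1.09) and EPAS1 (-1.05), which encodes a hypoxia-inducible factor. Averaged over all probe sets, EREG differed by -0.75 and TGFA by -0.58. The ligand genes TGFB1 (-0.83), IL6 (-0.81) and CXCL8 (-0.73) were at least 1.5-fold lower in every probe set, 1, 2 and 3 of them. Past the floor, 15 genes of the list were below 0 and 5 above 0. Those above 0 included the ligand genes IL1B (0.13), IL1A (0.008) and HBEGF (0.32). They also included DUSP1 (0.33), which encodes a phosphatase and not an inducing signal. DUSP1 and the ligand genes TGFB1, IL6, CXCL8, IL1B, IL1A and HBEGF are named here after their values were seen.

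Transcription factors known to act on the PTGS2 promoter were mostly within 1.5-fold. Of 27 genes past the floor, 3 were lower by 1.5-fold or more and 1 was higher by that much, with a median of -0.15, against 6.74% lower, 4.96% higher and 0.03 over all genes past the floor. CEBPD, a member of the C/EBP family whose letters are marked in the PTGS2 sequence above, read 9.91 on the knockdown array and 11.3 on the control array. Its difference was -1.36, and its 5 probe sets ran from -1.48 to -1.36. CEBPB (-0.28) and CEBPA (-0.07), of the same family, were within 1.5-fold and are named here after their values were seen. Whether any of these factors acted on PTGS2 in these cells was not tested. ATF2, which binds cAMP response elements, differed by -0.78 and NFATC4 by -0.72, but their means over all probe sets were -0.43 and -0.21. FOSL1, an AP-1 subunit, was higher, with 10.8 on the knockdown array and 10.1 on the control array (0.71), and all 6 of its probe sets were above 0. Among 13 measured proteins known to bind AU-rich elements, which control the stability of messenger RNAs such as that of PTGS2, 2 were lower by 1.5-fold or more and none was higher by that much, with a median of -0.0019. These were TIA1 (-0.74) and CELF2 (-0.67), whose means over all probe sets were -0.50 and -0.53.

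Downstream of the receptors, 1 of 21 genes of cyclic AMP signalling past the floor was lower by 1.5-fold or more and none was higher by that much, with a median of 0.02, against 6.74% lower and 0.03 over all genes past the floor. It was the phosphodiesterase gene PDE4D, which read 8.02 on the knockdown array and 8.70 on the control array (-0.68), or -0.37 over its 7 probe sets. Below the floor, 1 gene of this list was also lower by that much, NR4A2, a cyclic AMP-induced nuclear receptor gene named here after its value was seen. It read 6.23 on the knockdown array and 6.95 on the control array, and its 3 probe sets ran from -1.30 to -0.73.

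Genes listed as markers of other cell types also differed between the arrays of this line. Of 17 such markers 16 had a probe set, with readings of 3.40 to 9.46 on the knockdown array and 3.37 to 9.33 on the control array, and mean levels of 6.15 on the knockdown array and 6.48 on the control array. The leukocyte gene PTPRC read 3.40 on the knockdown array and 3.56 on the control array, and the endothelial gene CDH5 read 4.61 on both, each below the background mean of 4.73. Of the 8 past the floor, 4 were at least 1.5-fold lower, COL3A1 (-1.53), LUM (-1.34), PECAM1 (-1.09) and CD14 (-0.73), and CD8A was higher (1.02), against 6.74% lower and 4.96% higher over all genes past the floor. These 8 markers had a median difference of -0.55. Of these 8, CD68 alone was also past the 75th percentile of level, and it differed by 0.13. Both samples were of the MDA-MB-231 line, so these markers are no count of other cells. The part of these genes in the prostaglandin differences was not tested.

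**Figure D4:**
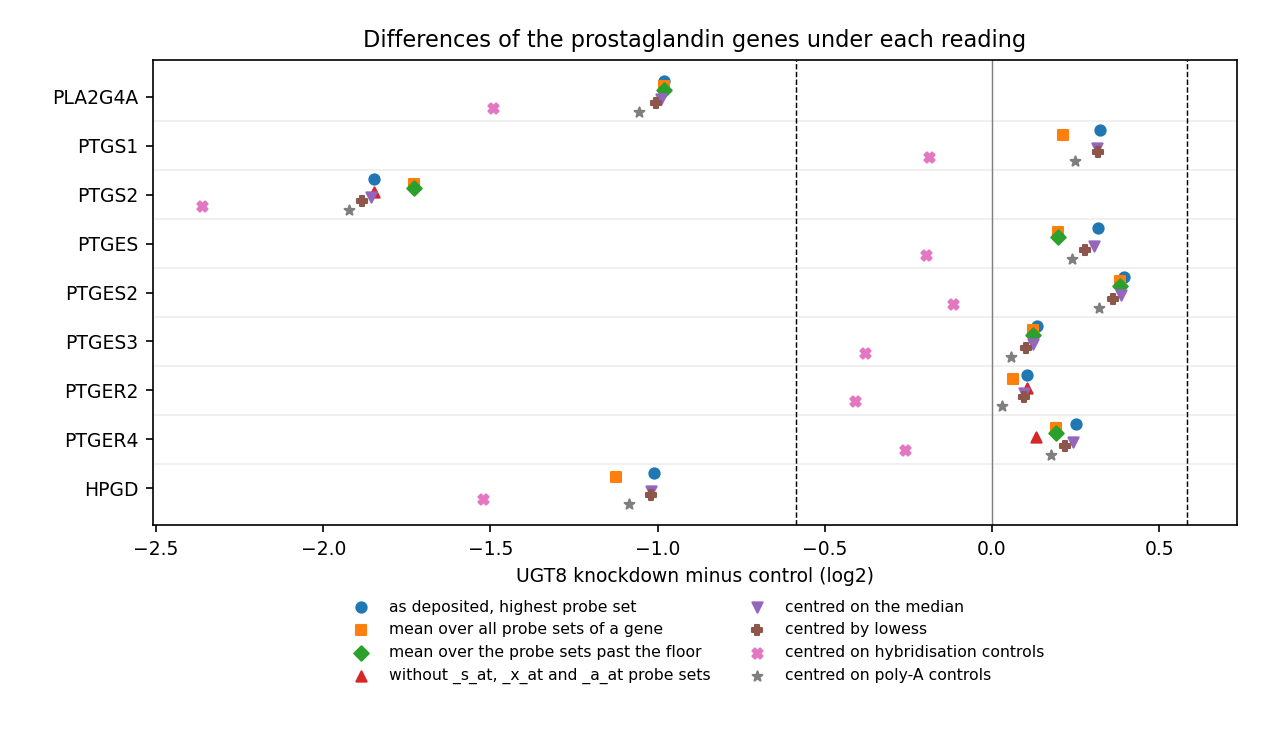
Difference (log2, UGT8 knockdown minus control) of each of the 9 genes under each way of reading the arrays, 1 symbol per reading, with dashed lines at 1.5-fold. PTGS2 stays between -2.36 and -1.73, PLA2G4A between -1.49 and -0.98 and HPGD between -1.52 and -1.01, while the other 6 cross 0 when centred on the hybridisation controls.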

How the data were processed

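Total RNA of 1 UGT8 knockdown clone and of 1 parental control was hybridised to Affymetrix arrays. The deposited values are log2 values made by the authors with RMA, per the submitters' processing notes; the software version is not given in the sources used here. RMA normalizes between arrays, so a difference is relative to the bulk of transcripts. The sorted values of both arrays differed by at most 0.0727. The number of arrays limits the precision. Of 49495 probe sets, 45278 had 1 gene symbol in the platform annotation, 1333 several and 2782 none, and 102 were controls. Symbols were updated by gene ID to RefSeq. Differences, counts at 1.5-fold and medians were computed with Python 3.11.15 and pandas 2.3.3, and the counting was tested on simulated data. The genes named were all 9 members, UGT8, the 3 genes on each side of PTGS2, and up to 6 genes a list that lay past the floor and 1.5-fold. Markers named for their level alone came from the fixed marker lists, and genes named outside the rule are marked as such. The members and the 9 lists were chosen with earlier results of these data known. Alternatives changed the probe set summary, the floor, the threshold and the centring. Groups came from the genotype labels.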

Additional observations from a re-analysis of the deposited data

How the results depend on the processing

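No paired analysis was possible because each group holds 1 array, and no replicate could be left out. Averaging probe sets, centring on the median, by lowess or on the poly-A controls kept PTGS2 between -1.92 and -1.73, PLA2G4A between -1.06 and -0.98 and HPGD between -1.13 and -1.01. Centring on the hybridisation controls lowered every difference by 0.51 by its construction: PTGS2 read -2.36, PLA2G4A -1.49 and HPGD -1.52, with 3870 genes below and 50 above 1.5-fold. Without probe sets named _s_at, _x_at or _a_at, PTGS2, PTGER2 and PTGER4 were left, 1 member past the floor was lower, and fewer genes were measured, with 254 lower and 168 higher. With the floor at the 75th percentile 403 genes were lower and 243 higher. At 2-fold 1 member past the floor was lower, beside 161 genes lower and 77 higher, and at 3-fold 1 member, beside 29 and 7. In all, 274 of the recomputed values and counts stayed within the spread between probe sets, or for counts within 1.5 times, and 98 moved; none of the differences past 1.5-fold among the 9 genes changed sign. Averaging all probe sets left 1 other prostanoid gene, 1 transcription factor and 6 inducing signals at least 1.5-fold lower. It left 0 genes of the AU-rich, cyclic AMP and lipoxygenase lists lower by that much. In the phospholipase list 4 genes were then lower by that much, against 3 by the highest probe set, and 1 was higher.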
